A study of Homo sapiens with 9 samples.

Results

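Integrins and laminins are the receptors and ligands of one adhesion system, and their subunit genes were followed across 9 Clariom S arrays of ACC-MESO-1, a cell line established from human pleural mesothelioma. The rule for the members used the gene symbol and no measured value: every array gene named as an integrin alpha subunit, an integrin beta subunit from ITGB1 to ITGB8, or a laminin alpha, beta or gamma chain. This gave 33 genes, 25 integrins and 8 laminins, of 17687 genes with a symbol, and each was read by 1 transcript cluster. Integrin and laminin genes that carry no cluster under these names are not analysed here.

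The cells had been infected with a control short hairpin RNA (3 arrays, replicates 1 to 3), with shLSD1 #1 (3 arrays, replicates 4 to 6) or with shLSD1 #2 (3 arrays, replicates 7 to 9). Both latter hairpins are directed at LSD1, a histone demethylase of repressor complexes. All 9 arrays therefore come from one cell line, and every group had been infected with a hairpin. The labels do not give the target of the control hairpin, the time after infection or whether replicates were separate cultures, so p-values measure the spread between arrays, which may be technical. The LSD1 transcript is not analysed here, so how far each hairpin lowered it is not known.

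Integrins are pairs of 1 alpha and 1 beta chain that span the plasma membrane, bind the matrix outside and couple to actin inside. The alpha chain largely sets the ligand: ITGA3, ITGA6 and ITGA7 bind laminin, ITGA2, ITGA10 and ITGA11 bind collagen, ITGA5, ITGA8, ITGAV and ITGA2B recognise the RGD peptide of fibronectin and related proteins, and ITGAD, ITGAE, ITGAL, ITGAM and ITGAX belong to leukocytes. Laminins are trimers of an alpha, a beta and a gamma chain and form the sheet of the basement membrane on which mesothelial cells rest. The alpha chain carries the main integrin-binding domains, and the gamma1 chain, from LAMC1, holds the site for nidogen.

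Values are log2 signals after robust multi-array averaging. Measured means that a gene's signal was over the 95th percentile of the 612 negative control probe sets of the same array, a level of 6.93 to 7.54. Between 42.0% and 46.2% of 21448 clusters exceeded it per array. Hybridization spike-ins, which do not come from the cells, split the arrays into a high class, with a mean spike-in signal of 11.2 to 11.4, and a low class, with 10.8 to 10.9. The high class held every control array and replicates 7 and 9 of shLSD1 #2; the low class held every shLSD1 #1 array and replicate 8 of shLSD1 #2. For shLSD1 #1 against control, this class of arrays and the hairpin cannot be told apart. By contrast, shLSD1 #2 could be compared with control within the high class. Only shLSD1 #2 spans both classes, with replicate 8 as its single low array. When the class is a block in the fit, any shLSD1 #1 change therefore depends on that array. Such a fit is no separate check of shLSD1 #1, whether a call is kept or lost in it.

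The members fell cleanly into measured and unmeasured genes. On every array the same count, 8 integrins and 3 laminins, lay above the negative controls, and 11 members were above on all 9 arrays while 22 were below on all 9. The measured genes were the laminin receptors ITGA3 and ITGA6, the collagen receptor ITGA2, the RGD receptors ITGA5 and ITGAV, the leukocyte-type chain ITGAE, the beta chains ITGB1 and ITGB5, and the laminin chains LAMB1, LAMB2 and LAMC1. Their values ran from 7.56 to 15.8, and those of the other 22 from 2.46 to 6.17. Of the beta chains, ITGB2, ITGB3, ITGB4, ITGB6, ITGB7 and ITGB8 were below the controls on all arrays, so that ITGB4, the partner of ITGA6 in hemidesmosomes, and ITGB7, the only known partner of ITGAE, were not measured. Of the laminin alpha chains, LAMA1, LAMA2 and LAMA4 were below on all arrays, as were LAMB4 and LAMC3.

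**Figure D1:**
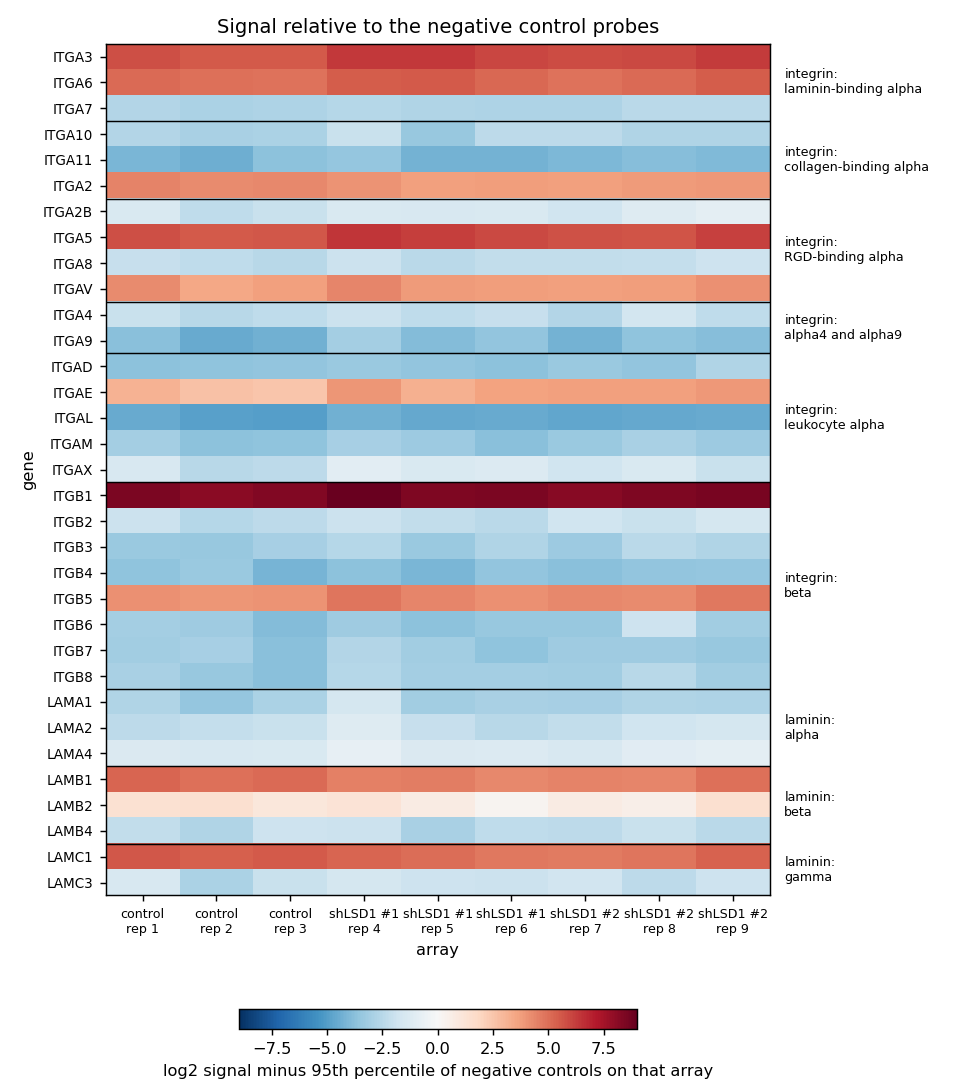
Log2 signal of the 33 integrin and laminin genes (rows, grouped by role) on each of the 9 arrays (columns) minus the 95th percentile of the negative controls on that array, where red is above and blue below. The same 11 rows are red in all 9 columns, and the other 22 are blue in all 9.

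Of the measured laminin chains, LAMB1 and LAMC1 were lower with both hairpins and LAMB2 with shLSD1 #1, while 5 of the 8 measured integrins passed the test with neither. Among all 8566 clusters above the negative controls on all 9 arrays, 2796 passed with at least 1 hairpin, so most passed with neither. By limma with Benjamini-Hochberg adjustment over all clusters, 6 of 33 members passed an adjusted p of 0.05 with shLSD1 #1, beside 15.8% of all clusters. With shLSD1 #2, 4 of 33 passed, beside 13.2% of all clusters. The members as a whole were thus called at 18.2% and 12.1%, near the share of all clusters. Of the 11 measured members, 54.5% and 36.4% were called, beside 28.6% and 24.0% of clusters above the negative controls on all 9 arrays. This difference was not tested. LAMB1, LAMC1 and ITGA2 were lower and ITGAE was higher with both hairpins, beside 5.32% of all clusters that were lower, 5.11% that were higher and 10.4% in either shared direction. The 2 comparisons share the 3 control arrays. A change of at least 2-fold past the threshold was seen in 0 members, beside 3.81% of all clusters with shLSD1 #1 and 3.33% with shLSD1 #2. The shLSD1 #1 count was 3 without control replicate 2, without control replicate 3, without shLSD1 #1 replicate 4 or without shLSD1 #1 replicate 6, and 0 when the class of spike-in signal was a block in the fit. The shLSD1 #2 count was 4 without each of the arrays in turn and 4 within the high class.

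The promoters of the 4 genes called with both hairpins are shown because the 3 that were lower can be set beside the 1 that was higher. Each window holds the 250 bases before the gene's RefSeq start in GRCh38.p14, written 5′ to 3′ on the gene's own strand, with the GC box GGGCGG, or CCGCCC where it lies on the opposite strand, in capitals. The windows are chr7:108003162-108003411 (minus strand) for LAMB1, chr1:183023170-183023419 (plus strand) for LAMC1, chr5:52989102-52989351 (plus strand) for ITGA2 and chr17:3801189-3801438 (minus strand) for ITGAE.
LAMB1: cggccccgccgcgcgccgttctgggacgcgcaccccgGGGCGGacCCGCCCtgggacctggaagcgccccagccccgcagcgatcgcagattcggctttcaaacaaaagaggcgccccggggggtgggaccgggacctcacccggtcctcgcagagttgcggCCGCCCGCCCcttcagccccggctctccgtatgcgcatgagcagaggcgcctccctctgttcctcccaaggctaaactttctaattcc
LAMC1: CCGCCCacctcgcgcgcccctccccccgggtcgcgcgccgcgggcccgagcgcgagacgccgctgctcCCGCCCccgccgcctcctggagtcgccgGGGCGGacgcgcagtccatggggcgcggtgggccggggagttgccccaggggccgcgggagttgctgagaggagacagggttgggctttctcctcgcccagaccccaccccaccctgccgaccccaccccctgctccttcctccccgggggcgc
ITGA2: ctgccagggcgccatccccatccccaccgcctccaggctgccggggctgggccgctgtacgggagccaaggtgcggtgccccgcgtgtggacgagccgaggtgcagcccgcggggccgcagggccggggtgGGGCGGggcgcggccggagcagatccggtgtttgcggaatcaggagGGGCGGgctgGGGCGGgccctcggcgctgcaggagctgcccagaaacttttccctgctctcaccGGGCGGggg
ITGAE: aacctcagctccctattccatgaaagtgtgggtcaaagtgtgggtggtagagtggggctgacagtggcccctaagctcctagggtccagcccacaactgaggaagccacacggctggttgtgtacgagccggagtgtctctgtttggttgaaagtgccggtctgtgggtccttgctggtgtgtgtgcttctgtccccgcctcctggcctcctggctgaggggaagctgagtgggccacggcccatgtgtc

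The LAMB1 window held 4 matches to the GC box, a pair of which overlap, the LAMC1 window 3 and the ITGA2 window 4, and the ITGAE window held 0. Their GC content was 70.4%, 79.6%, 76.4% and 60%, against a median of 58% over 35116 RefSeq promoter windows of the same length. The GC box occurred in 42.6% of all those windows and in 11 of the 22 member windows that could be matched, including 8 of the 10 of measured members. Among those 8 were the windows of ITGA5, ITGA6, ITGB1 and ITGB5, which passed with neither hairpin. Searched on both strands, the AP-1 motif TGANTCA was in 0 of the 22 member windows and 6.57% of all windows, the TEAD motif GGAATG in 4 and 11.9%, the CArG box of serum response factor in 1 and 1.16%, and the interferon-stimulated response element (ISRE) in 1 and 3.02%. The 4 printed windows held none of these other motifs. These matches are descriptions of the windows alone, and the GC box was added to the search after the data had been seen.

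LAMB1, the beta1 chain of most laminin trimers, read 12.43, 12.52 and 12.54 on the control arrays, 11.47, 11.88 and 11.63 on shLSD1 #1 arrays and 11.83, 11.54 and 11.96 on shLSD1 #2 arrays. All 6 hairpin arrays lay below all 3 control arrays. The log2 change was -0.84 ± 0.15 with shLSD1 #1 (SE, n = 3, limma adjusted p = 0.00449), which is 1.79-fold lower, and -0.72 ± 0.15 with shLSD1 #2 (adjusted p = 0.0110), which is 1.64-fold lower. In the fit with this block the shLSD1 #1 change was -0.48, which is no separate check. Within the high class the shLSD1 #2 change was -0.60 (adjusted p = 0.0443).

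LAMC1, the gamma1 chain found with LAMB1 in the same trimers, read 12.83, 12.92 and 12.95 on control arrays, 12.15, 12.32 and 12.09 on shLSD1 #1 arrays and 12.03, 12.02 and 12.26 on shLSD1 #2 arrays. Again the control and hairpin values did not overlap. The change was -0.71 ± 0.12 with shLSD1 #1 (SE, n = 3, limma adjusted p = 0.00337), 1.64-fold lower, and -0.80 ± 0.12 with shLSD1 #2 (adjusted p = 0.00201), 1.74-fold lower. With the block the shLSD1 #1 change was -0.59. Within the high class the shLSD1 #2 change was -0.76 (adjusted p = 0.0296).

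LAMB2, the beta2 chain that can replace beta1, was the member nearest to the negative controls among those measured. It read 8.58, 8.99 and 8.45 on control arrays, 8.15, 8.04 and 7.56 on shLSD1 #1 arrays and 8.12, 7.74 and 8.39 on shLSD1 #2 arrays. The hairpin arrays lay below the control arrays, and the closest pair, control replicate 3 and shLSD1 #2 replicate 9, were near each other. The change of -0.76 ± 0.22 passed with shLSD1 #1 (SE, n = 3, limma adjusted p = 0.0454), and the -0.59 ± 0.22 of shLSD1 #2 did not (adjusted p = 0.120). The shLSD1 #1 call ended when any of 7 arrays was left out, namely control replicates 1, 2 or 3, shLSD1 #1 replicates 4, 5 or 6, or shLSD1 #2 replicate 7, at adjusted p between 0.0553 and 0.148. With the block the shLSD1 #1 change was -0.24.

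Among the receptors, ITGA2, which pairs with ITGB1 to bind collagen and can also bind laminin, was lower with both hairpins. It read 11.65, 11.80 and 11.80 on control arrays, 10.98, 10.94 and 11.05 on shLSD1 #1 arrays and 11.01, 10.99 and 10.86 on shLSD1 #2 arrays. The gap between the groups was several times the spread within any of them, which was 0.057 to 0.087 (SD, n = 3). The change was -0.76 ± 0.11 with shLSD1 #1 (SE, limma adjusted p = 0.00138), 1.69-fold lower, and -0.80 ± 0.11 with shLSD1 #2 (adjusted p = 0.00109), 1.74-fold lower. With the block the shLSD1 #1 change was -0.82, and within the high class the shLSD1 #2 change was -0.81 (adjusted p = 0.0220). The other collagen-binding members, ITGA10 and ITGA11, were below the negative controls on every array.

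Of the alpha chains grouped here as laminin-binding, ITGA3, ITGA6 and ITGA7, none passed in the lower direction. ITGA3, the alpha chain of a main epithelial laminin receptor, read 12.99, 13.05 and 13.00 on control arrays, 13.32, 13.61 and 13.35 on shLSD1 #1 arrays and 13.21, 13.15 and 13.25 on shLSD1 #2 arrays. Every hairpin array lay above every control array. The change of 0.41 ± 0.11 passed with shLSD1 #1 (SE, n = 3, limma adjusted p = 0.0373), 1.33-fold higher, whereas 0.19 ± 0.11 with shLSD1 #2 did not (adjusted p = 0.340). The shLSD1 #1 call ended without control replicate 1, 2 or 3. It also ended without shLSD1 #1 replicate 4, 5 or 6, or without shLSD1 #2 replicate 7. In these fits the adjusted p was between 0.0515 and 0.0988. With the block the shLSD1 #1 change was 0.49.

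ITGA6, which binds laminin as a partner of ITGB1 or ITGB4, read 12.31, 12.50 and 12.36 on control arrays, 12.37, 12.82 and 12.50 on shLSD1 #1 arrays and 12.27, 12.30 and 12.43 on shLSD1 #2 arrays. The groups overlapped. The changes were 0.17 with a 95% interval of -0.14 to 0.48 and -0.06 with an interval of -0.37 to 0.25 (limma adjusted p = 0.456 and 0.852).

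The RGD receptors did not pass with either hairpin. ITGA5, the fibronectin receptor chain, read 13.03, 13.09 and 13.03 on control arrays, 13.34, 13.51 and 13.23 on shLSD1 #1 arrays and 13.07, 12.82 and 13.10 on shLSD1 #2 arrays. The shLSD1 #1 arrays lay above the others, with a change of 0.30 ± 0.12 (SE, n = 3, limma adjusted p = 0.132), and shLSD1 #2 overlapped control at -0.05 ± 0.12 (adjusted p = 0.842). ITGA5 passed with shLSD1 #1 when the prior had a trend and robust estimation (adjusted p = 0.0190). ITGAV, the shared alpha chain of the vitronectin-type receptors, averaged 11.22 ± 0.21 on control arrays (SD, n = 3), 11.17 ± 0.15 with shLSD1 #1 and 11.05 ± 0.081 with shLSD1 #2. Its changes were -0.05 and -0.17, with 95% intervals of -0.36 to 0.26 and -0.48 to 0.15, and the groups overlapped.

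ITGAE, the alpha chain by which intraepithelial lymphocytes hold E-cadherin, was the member that was higher with both hairpins. It read 10.34, 10.15 and 9.98 on control arrays, 10.90, 10.48 and 10.91 on shLSD1 #1 arrays and 11.06, 10.89 and 10.89 on shLSD1 #2 arrays. All hairpin arrays lay above all control arrays, with shLSD1 #1 replicate 5 closest to them. The change was 0.61 ± 0.15 with shLSD1 #1 (SE, n = 3, limma adjusted p = 0.0248), 1.52-fold higher, and 0.79 ± 0.15 with shLSD1 #2 (adjusted p = 0.00800), 1.73-fold higher. The shLSD1 #1 call ended without control replicate 2 or 3 or without shLSD1 #1 replicate 4 or 6. In these fits the adjusted p was between 0.0706 and 0.0872. With the block the shLSD1 #1 change was 0.69. Within the high class the shLSD1 #2 change was 0.82 (adjusted p = 0.0368).

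Genes that overlap ITGAE and most other leukocyte genes had low signals. RefSeq places the protein-coding genes HASPIN and P2RX5 across part of the ITGAE span, and ITGAE was the only 1 of the 11 measured members with such an overlap. HASPIN, a mitotic histone kinase, was above the negative controls on 2 of 9 arrays, with log2 changes of 0.09 and -0.04 (limma adjusted p = 0.743 and 0.913), and P2RX5, an ATP-gated channel, was above on 0 arrays. The other leukocyte alpha chains ITGAD, ITGAL, ITGAM and ITGAX, and ITGB2 and ITGB7, were below on all 9 arrays. So was PTPRC, the general leukocyte marker. Of 7 leukocyte markers on the array, 5 were below on all arrays and CSF1R, a macrophage receptor, was above on all 9, with changes of -0.07 and 0.03. The remaining marker, CD79A, was above on 0 control, 2 shLSD1 #1 and 1 shLSD1 #2 arrays. The mean level of this list was 5.08 to 5.25 on control, 5.12 to 5.35 on shLSD1 #1 and 4.93 to 5.28 on shLSD1 #2 arrays.

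Neither measured beta chain passed with either hairpin. ITGB1, the partner of ITGA2, ITGA3, ITGA5, ITGA6 and ITGAV, read 15.70, 15.70 and 15.77 on control arrays, 15.84, 15.64 and 15.76 on shLSD1 #1 arrays and 15.57, 15.56 and 15.53 on shLSD1 #2 arrays. The shLSD1 #1 arrays surrounded the control arrays, and the shLSD1 #2 arrays lay below them. Its changes were 0.02 with a 95% interval of -0.21 to 0.25 and -0.17 with an interval of -0.40 to 0.06 (limma adjusted p = 0.913 and 0.357). The shLSD1 #2 change passed with the trended robust prior (adjusted p = 0.0439). ITGB5, which pairs with ITGAV, read 11.33, 11.50 and 11.50 on control, 11.78, 11.67 and 11.42 on shLSD1 #1 and 11.68, 11.40 and 11.73 on shLSD1 #2 arrays. These groups overlapped, and the changes were 0.18 and 0.16 (adjusted p = 0.441 and 0.546).

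**Figure D2:**
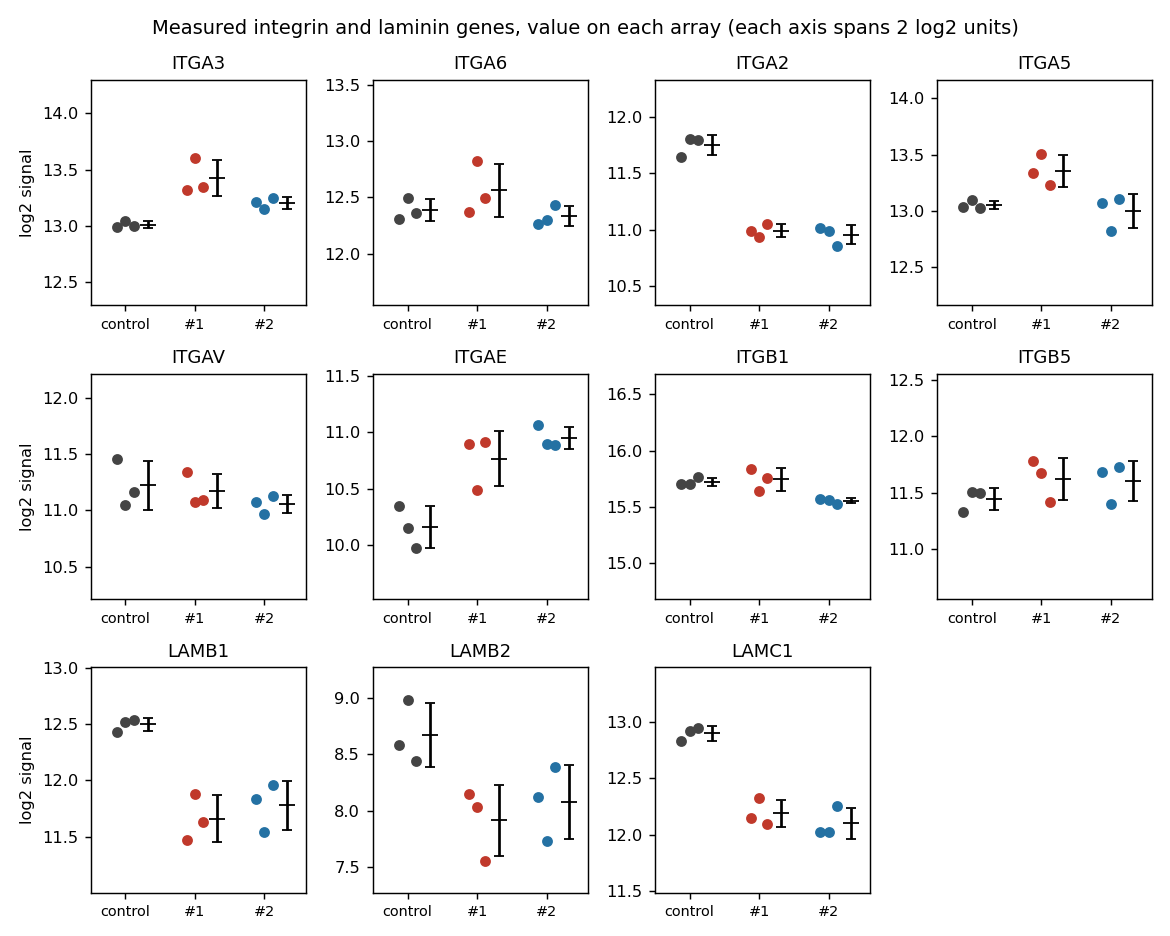
Log2 signal of the 11 measured members on each array (points; black marks show mean and SD of 3 arrays) for control shRNA, shLSD1 #1 and shLSD1 #2, with every vertical axis spanning 2 log2 units. ITGA2, LAMB1 and LAMC1 separate downward and ITGAE upward in both hairpin groups, while ITGA6, ITGAV and ITGB5 overlap control.

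Set side by side, ligands and receptors differed in count but this difference was not tested, because the members were chosen with earlier results known. Of 8 laminins, 3 were lower and 0 higher with shLSD1 #1, and 2 were lower and 0 higher with shLSD1 #2. Lower calls made up 7.94% and 6.63% of all clusters. Of 25 integrins, 1 was lower and 2 were higher with shLSD1 #1, and 1 was lower and 1 higher with shLSD1 #2, where higher calls made up 7.85% and 6.56% of all clusters. The median log2 change of the laminins was -0.14 and -0.17 and that of the integrins -0.03 and -0.01, beside 0.03 and 0.02 over all clusters. The laminin medians turned on single arrays: without control replicate 2 they were -0.35 and -0.41, and without control replicate 3 they were -0.014 and -0.019. Leaving out a hairpin array gave -0.32 (replicate 4) and -0.014 (replicate 5) for shLSD1 #1, and -0.29 (replicate 7) and -0.073 (replicate 9) for shLSD1 #2, and leaving out control replicate 1 gave -0.27 for shLSD1 #1. With values raised to the negative controls all 4 of these medians became 0, since most members were not measured, and the integrin median with shLSD1 #1 was 0.17 when clusters of low mean signal (the lowest 33.3%) were left out.

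Values over the measured genes alone are a description, with no test. The 3 measured laminins changed by -0.84 to -0.71 with shLSD1 #1 and by -0.80 to -0.59 with shLSD1 #2. The 8 measured integrins ranged from -0.76 to 0.61 with shLSD1 #1 and from -0.80 to 0.79 with shLSD1 #2, with medians of 0.18 and -0.05. Among all 8566 clusters above the negative controls on all 9 arrays, 28.6% were called with shLSD1 #1 and 24.0% with shLSD1 #2. The 22 unmeasured members had changes between -0.32 and 0.67 with shLSD1 #1 and between -0.24 and 0.38 with shLSD1 #2, none past the threshold, the smallest adjusted p being 0.0843 for ITGAX with shLSD1 #1. No fold is given for them.

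**Figure D3:**
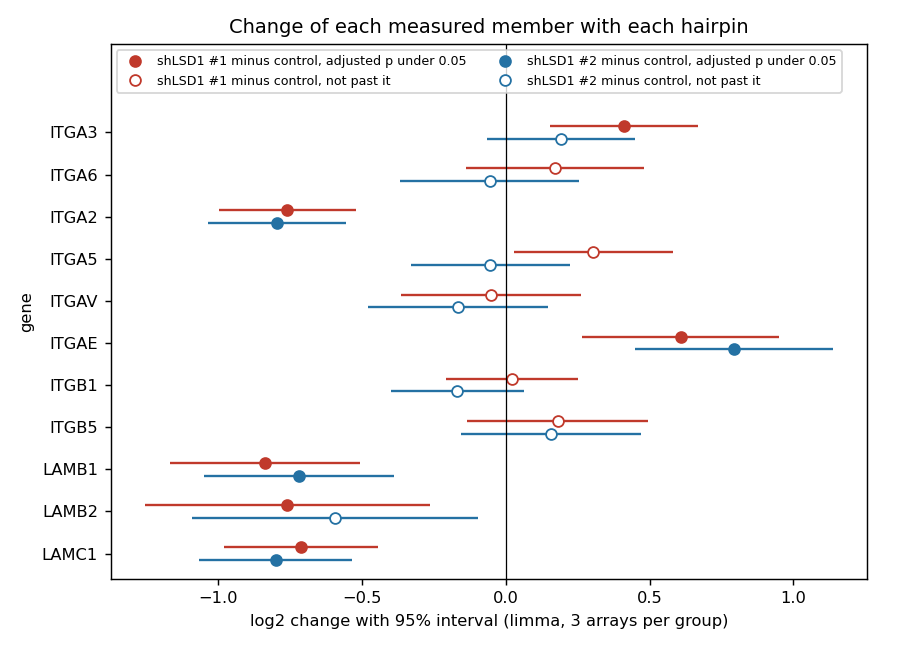
Log2 change of the 11 measured members with shLSD1 #1 (red) and shLSD1 #2 (blue) against the same 3 control arrays, with 95% intervals from limma, filled where the adjusted p is under 0.05. The laminins lie at -0.84 to -0.59, together with ITGA2, and the other integrins at -0.17 to 0.79.

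Between the hairpins, 0 of 33 members passed by limma, beside 0.00% of all clusters, the smallest adjusted p being 0.565, and 0 passed in each of the alternative fits run. An unadjusted p under 0.05 was reached by 3 members, ITGA5, ITGAX and ITGB2, beside 7.87% of all clusters. For ITGA2 the difference of shLSD1 #1 from shLSD1 #2 was 0.04 with a 95% interval of -0.20 to 0.28, for LAMB1 -0.12 (-0.45 to 0.21), for LAMC1 0.09 (-0.18 to 0.35) and for ITGAE -0.19 (-0.53 to 0.16). For ITGA5 it was 0.36 (0.08 to 0.63, adjusted p = 0.583).

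Other basement membrane genes were called in both directions with shLSD1 #2 and only in the higher direction with shLSD1 #1. Of 15 on the array, 1 was higher and 0 lower with shLSD1 #1 (6.67% called, beside 15.8% of all clusters), and 1 was higher and 2 lower with shLSD1 #2 (20.0%, beside 13.2%), with medians of -0.01 and -0.06. NID1, nidogen-1, which ties the laminin gamma1 chain to collagen IV, read 11.62, 11.66 and 11.54 on control arrays, 12.85, 12.83 and 12.79 on shLSD1 #1 arrays and 12.86, 12.78 and 12.79 on shLSD1 #2 arrays. It thus rose while LAMC1 fell, by 1.21 ± 0.099 and 1.20 ± 0.099 (SE, n = 3, limma adjusted p = 5.85e-05 and 5.87e-05), 2.32-fold and 2.30-fold. With the block the NID1 changes were 1.26 and 1.22 (adjusted p = 0.0161 and 0.000461). For shLSD1 #1 that fit rests on the single shLSD1 #2 array of low signal, so it is no separate check. NID2, its relative, had -0.26 with shLSD1 #1 (adjusted p = 0.269) and fell by 0.66 with shLSD1 #2 (adjusted p = 0.0148, but 0.0552 without control replicate 3).

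HSPG2, the proteoglycan perlecan, read 10.78, 10.61 and 10.83 on control, 10.60, 10.71 and 10.61 on shLSD1 #1 and 9.98, 9.79 and 10.18 on shLSD1 #2 arrays. Only the shLSD1 #2 arrays lay apart, at -0.76 ± 0.13 (SE, n = 3, limma adjusted p = 0.00428), against -0.10 ± 0.13 with shLSD1 #1 (adjusted p = 0.665). The difference between hairpins was 0.66 with a 95% interval of 0.37 to 0.95 and did not pass after adjustment (adjusted p = 0.479).

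Of the laminin receptors that are not integrins, 5 were on the array. With each hairpin 2 were higher and 1 was lower, 1 of the higher ones (BCAM) being unmeasured, where 15.8% and 13.2% of all clusters were called. Of these 5 genes, 3 were above the negative controls on all 9 arrays, and 28.6% and 24.0% of all such clusters were called. SDC1, syndecan-1, a heparan sulphate co-receptor of epithelia, changed by 0.84 ± 0.15 and 0.85 ± 0.15 (SE, n = 3, limma adjusted p = 0.00540 and 0.00577). SDC3, syndecan-3, changed by -0.81 ± 0.15 and -1.04 ± 0.15 (adjusted p = 0.00479 and 0.00136). With the block the shLSD1 #1 changes were 0.99 and -0.43, which is no separate check. BCAM, the Lutheran receptor for laminin alpha5, passed with both hairpins (adjusted p = 0.00711 and 0.00745) with means of 5.67 ± 0.18, 6.70 ± 0.42 and 6.72 ± 0.11 (SD, n = 3), but it was below the negative controls on all 9 arrays and no fold is given. Its shLSD1 #1 call was not kept with the block, which is no separate check.

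Membrane partners of the integrins were called in both directions with shLSD1 #1 and only in the lower direction with shLSD1 #2. In the list of hemidesmosome and tetraspanin partners, 2 of 8 were higher and 1 lower with shLSD1 #1, beside 7.85% higher and 7.94% lower of all clusters. With shLSD1 #2, 0 were higher and 4 lower, beside 6.56% and 6.63%. Of these 8 genes, 7 were above the negative controls on all 9 arrays, and 28.6% and 24.0% of all such clusters were called in either direction. CD151, the tetraspanin bound to the laminin receptors of ITGA3 and ITGA6, read 14.22, 14.36 and 14.29 on control, 13.50, 13.59 and 13.51 on shLSD1 #1 and 13.73, 13.48 and 13.81 on shLSD1 #2 arrays. All hairpin arrays lay below all control arrays, the hairpin groups overlapped each other, and the changes were -0.76 ± 0.12 and -0.62 ± 0.12 (SE, n = 3, limma adjusted p = 0.00239 and 0.00782). With the block the shLSD1 #1 change was -0.47, while the shLSD1 #2 call ended within the high class, at -0.52 (adjusted p = 0.0633). The tetraspanin CD9 rose with shLSD1 #1, by 0.48 (adjusted p = 0.0284), and had 0.36 with shLSD1 #2 (adjusted p = 0.0906). The tetraspanin CD81 fell with shLSD1 #2, by 0.46 (adjusted p = 0.0173), and had -0.33 with shLSD1 #1 (adjusted p = 0.0640). The CD9 call ended without control replicate 1 or 3 or without any shLSD1 #1 array, at adjusted p between 0.0611 and 0.0920. With the block the CD9 change of shLSD1 #1 was 0.17. The CD81 call ended without control replicate 1 or 2 or shLSD1 #2 replicate 7 or 8, at adjusted p between 0.0554 and 0.0653, and within the high class.

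Inside the cell, the focal adhesion core was called at shares near those of all clusters. Of its 22 genes, 16 were above the negative controls on all 9 arrays, and 28.6% and 24.0% of all such clusters were called. Of 22 genes, 3 were higher and 2 lower with shLSD1 #1 (22.7% called, beside 15.8% of all clusters), and 0 were higher and 2 lower with shLSD1 #2 (9.09%, beside 13.2%), with medians of 0.10 and 0.14. FERMT2, kindlin-2, which activates integrins through their beta tails, changed by -0.66 and -0.62 (limma adjusted p = 0.00465 and 0.00759). LIMS1, the adaptor PINCH1 that binds integrin-linked kinase, changed by -0.55 and -0.44 (adjusted p = 0.0117 and 0.0351). The latter was lost when control replicate 1, 2 or 3 was left out, or shLSD1 #2 replicate 7 or 9, at adjusted p between 0.0634 and 0.107. TGFB1I1, the paxillin relative Hic-5, rose by 0.48 with shLSD1 #1 (adjusted p = 0.0446) and had 0.32 with shLSD1 #2 (adjusted p = 0.181). Its call ended without any control array, without shLSD1 #1 replicate 4 or 5 or without shLSD1 #2 replicate 7, at adjusted p between 0.0645 and 0.118. With the block the shLSD1 #1 calls of FERMT2, LIMS1 and TGFB1I1 were not kept, which is no separate check. The shLSD1 #2 calls of FERMT2 and LIMS1 ended within the high class (adjusted p = 0.0739 and 0.0757).

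Integrin ligands other than laminins were called in both directions. Of 25, 7 were higher and 5 lower with shLSD1 #1 (48.0% called, beside 15.8% of all clusters), and 7 were higher and 6 lower with shLSD1 #2 (52.0%, beside 13.2%), with medians of 0.05 and -0.05. Of these 25 genes, 14 were above the negative controls on all 9 arrays, and 28.6% and 24.0% of all such clusters were called. POSTN, periostin, a ligand of ITGAV receptors, rose by 1.68 ± 0.11 and 1.61 ± 0.11 (SE, n = 3, limma adjusted p = 2.01e-05 and 2.32e-05), 3.20-fold and 3.05-fold. MFGE8, an RGD protein that bridges apoptotic cells to ITGAV receptors, changed by -1.15 ± 0.10 and -1.34 ± 0.10 (adjusted p = 9.79e-05 and 3.76e-05), 2.22-fold and 2.53-fold lower. Both passed with the block, which for shLSD1 #1 rests on a single shLSD1 #2 array and is no separate check. NPNT, nephronectin, the ligand of ITGA8, passed with both hairpins (adjusted p = 0.00539 and 0.0132) but was below the negative controls on all 9 arrays, as was ITGA8, so no fold is given. The NPNT call of shLSD1 #1 was not kept with the block, which again is no separate check. That of shLSD1 #2 ended within the high class (adjusted p = 0.0815).

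**Figure D4:**
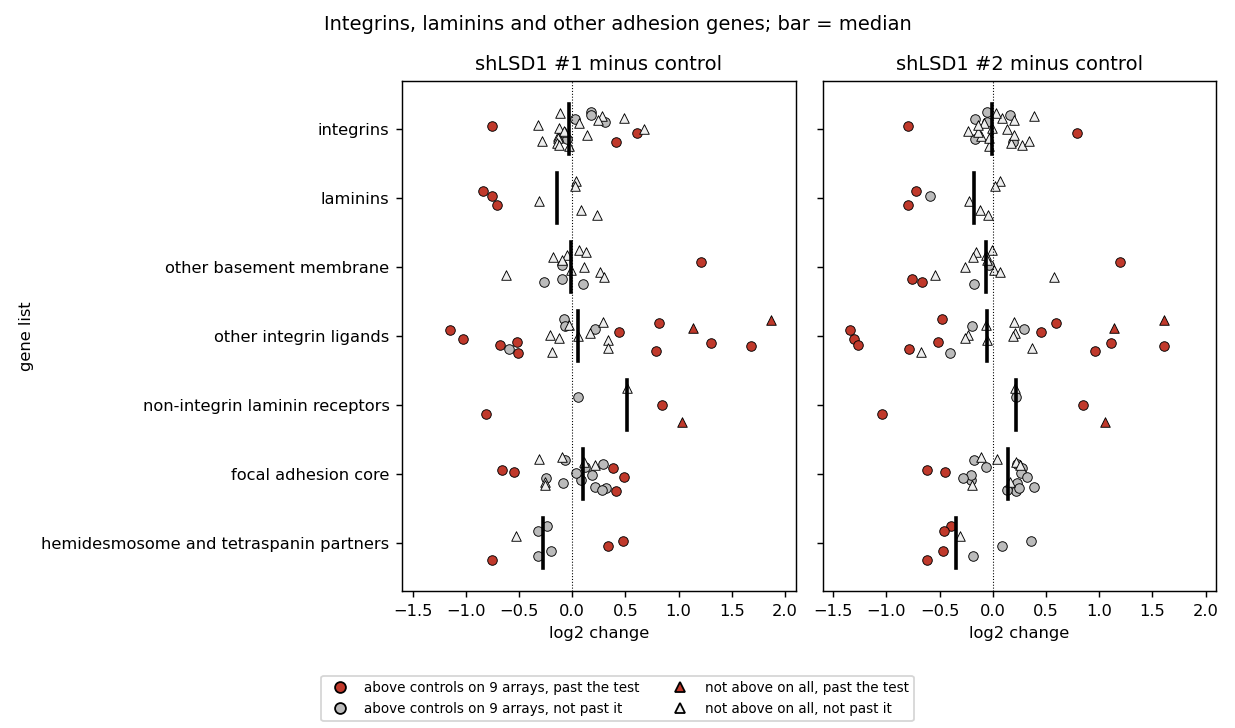
Log2 change of each integrin, laminin and other adhesion gene (points) with shLSD1 #1 (left) and shLSD1 #2 (right) against the same control arrays, by list, with a bar at each list's median. Red marks genes past the adjusted threshold, circles genes above the negative controls on all 9 arrays and triangles the others; the 3 measured laminins sit at the low end of their list and NID1 at the high end of the other basement membrane genes.

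The labelled cell type was read from 11 mesothelial markers. KRT8, KRT18 and MSLN were above the negative controls on all 9 arrays, 4 were below on all 9 (CALB2, LRRN4, BNC1 and KRT5), and the other 4 were above on some. MSLN, mesothelin, changed by -0.85 and -0.95 (limma adjusted p = 0.00729 and 0.00482). WT1, a mesothelial transcription factor, and UPK3B, uroplakin-3b, were above on 0 of the 3 control arrays and on 6 and 5 of all 9, and both passed in the higher direction (adjusted p = 0.0156 and 0.0304 for WT1, 0.00325 and 0.00341 for UPK3B). The mean of the list was 8.31 to 8.64 on control, 8.45 to 8.66 on shLSD1 #1 and 8.55 to 8.67 on shLSD1 #2 arrays. Of 3 fibroblast markers, DCN and PDGFRA were below on all 9 arrays, and LUM, the matrix proteoglycan lumican, was above on 1 of 3 control arrays and on all 6 hairpin arrays and passed in the higher direction (adjusted p = 6.97e-05 and 6.43e-05). The mean of these 3 was 5.31 to 5.62 on control, 6.20 to 6.47 on shLSD1 #1 and 6.42 to 6.50 on shLSD1 #2 arrays. The 4 platelet and 5 endothelial markers were below on all 9 arrays. The part of these marker changes in the integrin and laminin values was not tested. In such bulk RNA, fewer cells of a kind and less RNA per cell cannot be told apart.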

How the data were processed

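Total RNA of 9 ACC-MESO-1 samples, 100 ng each, was biotin-labelled and hybridized to 1-colour Clariom S arrays. The submitters' processing notes list RMA and Affymetrix Expression Console 1.4; the deposited values are read as log2 signals, the base 2 being the RMA default and not stated. Which library files and options were used is not given in the sources. Of 24351 probe sets, 2903 control probe sets were set aside and 21448 transcript clusters were tested without a filter. Symbols came from the platform annotation, which names 17709 clusters. All 33 members matched RefSeq (GRCh38.p14), 22 of them with a promoter window.

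limma 3.58.1 (lmFit, eBayes) in R 4.3.3 was fitted to all 9 arrays in 3 groups, with two-sided p-values adjusted by Benjamini-Hochberg over all clusters at 0.05. The procedure was tested on simulated data. Named members are those past the threshold or measured; from each pathway list up to 3 genes were named by the largest mean change among those past it. Members and lists were chosen with earlier results of these data known. Alternatives were a second quantile normalization, median centring, cyclic loess, a filter that drops the lowest 33.3% of clusters by mean, eBayes with trend and robust, weights per array, only the groups compared, each array left out, the spike-in class (split at the largest gap between arrays) as a block, only the high class, other clusters per gene, and values raised to 7.25, the mean negative control percentile. Precision is limited by the number of arrays. The GC box was added to the motif search after the data had been seen. Figures were drawn with matplotlib 3.10.9.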

Additional observations from a re-analysis of the deposited data

How the results depend on the processing

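The log2 changes of LAMB1, LAMC1, ITGA2 and ITGAE kept their sign with both hairpins in every alternative, and their shLSD1 #2 calls held in all 19. With shLSD1 #1, the 6 calls became 3 when only the 2 groups compared were fitted, with 0 integrins higher, and 0 when the class of spike-in signal was a block, with 0 integrins higher, 0 integrins lower and 0 laminins lower. In that block the shLSD1 #1 change rests on the single shLSD1 #2 array of low signal, so it is no separate check. With 1 array left out, the shLSD1 #1 count ran from 3 to 7 and its integrins called higher from 0 to 3. The trended robust prior called 2 integrins lower with shLSD1 #2. The integrin median with shLSD1 #1 was 0.17 without the clusters of lowest mean. The laminin median with shLSD1 #2 was -0.23 without those clusters, -0.13 with array weights, -0.24 with the block or within the high class, and 0 with values raised to the negative controls. With 1 array left out it ran from -0.41 to -0.019, and that of shLSD1 #1 from -0.35 to -0.014. Each median rests on few measured genes. No result of a test reversed. No paired analysis was possible because the groups share no replicate numbers. No member had several clusters, so that alternative changed nothing here. Signals below the negative controls give no fold.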

Other observations

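Collagens, the ligands of ITGA2 receptors, moved in different directions, and the 3 named here were chosen after their values were seen. COL6A1, a chain of microfibrillar collagen VI, read 8.67, 8.44 and 8.65 on control arrays, 7.42, 7.51 and 7.74 on shLSD1 #1 arrays and 7.37, 7.28 and 7.21 on shLSD1 #2 arrays, a change of -1.03 ± 0.13 and -1.30 ± 0.13 (SE, n = 3, limma adjusted p = 0.000633 and 0.000162). The shLSD1 #2 values lay close to the negative control levels of those arrays, 7.35, 7.18 and 6.98. Those of shLSD1 #1 also lay near theirs, 6.93, 7.27 and 7.32, so the size of both falls is uncertain. COL5A1, a chain of fibril-nucleating collagen V, had -0.60 with shLSD1 #1 (adjusted p = 0.0543) and fell by 0.78 with shLSD1 #2 (adjusted p = 0.0203). COL1A2, a chain of fibrillar collagen I, rose by 0.82 and 0.59 (adjusted p = 0.00344 and 0.0199).

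A pair of matrix proteins bound by several integrins also differed from each other. THBS1, thrombospondin-1, rose by 0.44 and 0.45 (limma adjusted p = 0.0329 and 0.0333), and TGFBI, a TGF-beta-induced adhesion protein, changed by -0.52 and -0.51 (adjusted p = 0.0199 and 0.0244). Among the other integrin ligands, FN1 and CCN2 changed more than this pair, again in opposite directions. FN1, fibronectin, changed by -0.68 with shLSD1 #1 and -1.27 with shLSD1 #2 (limma adjusted p = 0.0154 and 0.000621). CCN2 was 2.46-fold higher with shLSD1 #1 and 2.16-fold higher with shLSD1 #2 (limma adjusted p = 0.00196 and 0.00509). These genes too were chosen after their values were seen.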
